A study of Homo sapiens with 4 samples.

Results

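The genes of replication licensing were examined for 3 histone modifications in MHCC97L cells, an established human hepatocellular carcinoma line. The 10 genes, MCM2 to MCM7, MCM10, CDC6, CDT1 and E2F1, were chosen by name, each with 20000 bp on either side, from 19821 protein-coding genes, and all 10 were found in the gene table. The study comprised 4 chromatin immunoprecipitation sequencing samples of untreated, wild-type cells of this line: 1 library each for trimethylation of histone H3 at lysine 4 (H3K4me3), acetylation at lysine 27 (H3K27ac) and monomethylation at lysine 4 (H3K4me1), and 1 input library, which was not analysed here. Its stated aim was to chart the chromatin state of these cells. With 1 library per mark nothing below has a replicate error or a test, and the order of scores between genes is a description of these libraries.

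Licensing is the loading of the MCM2-7 helicase onto replication origins before S phase. The origin recognition complex and CDC6 bind the origin, CDT1 brings the hexamer of MCM2, MCM3, MCM4, MCM5, MCM6 and MCM7, and MCM10 joins later, when the loaded helicase is activated. E2F1 is a transcription factor that switches on S-phase genes, among them licensing genes, and is held back by the retinoblastoma protein in resting cells. In chromatin, H3K4me3 is typical of promoters, H3K27ac of active promoters and enhancers, and H3K4me1 of enhancers and the flanks of promoters.

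Each deposited list gives the summit of every called peak with a score, which is the −log10 of a p-value or q-value (higher means stronger evidence over background). The 46078 H3K4me3, 70028 H3K27ac and 86366 H3K4me1 summits of chromosomes 1 to 22 and X had median scores of 8.23, 8.40 and 4.58; read depth is unknown, so a score of one mark is not set against that of another. Of the marker genes checked, KRT8 and KRT18 of epithelial cells had H3K4me3 and H3K27ac at the same gene boundary, as did HNF4A of the hepatocyte lineage. The hepatocyte-lineage genes ALB, AFP, TTR, APOA1, SERPINA1 and FOXA2 did not, nor did any of 2 stromal, 2 endothelial and 2 leukocyte genes. KRT8 and KRT18 had equal best scores, 107 for H3K4me3 and 93.1 for H3K27ac, so they may share 1 site. A single mark lay at a boundary of endothelial PECAM1 (H3K27ac 43.9), FOXA2 (H3K27ac 3.66) and APOA1 (H3K4me3 1.80).

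All 10 licensing genes had H3K27ac and all but MCM4 had H3K4me3 within 1000 bp of a gene boundary, the start or end of the gene in the RefSeq table. The background over all protein-coding genes was 54.5% for H3K27ac and 57.2% for H3K4me3. Both marks lay at the same boundary in 9 of the 10 genes, against 47.7% of protein-coding genes. H3K4me1 lay at a boundary of 2 of the 10, MCM5 and E2F1, against 12.5%. The members' median best boundary score was 62.9 for H3K4me3 over 9 genes and 33.0 for H3K27ac over 10 genes. The medians over all protein-coding genes that carried the mark at a boundary were 52.2 and 30.1.

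**Figure D1:**
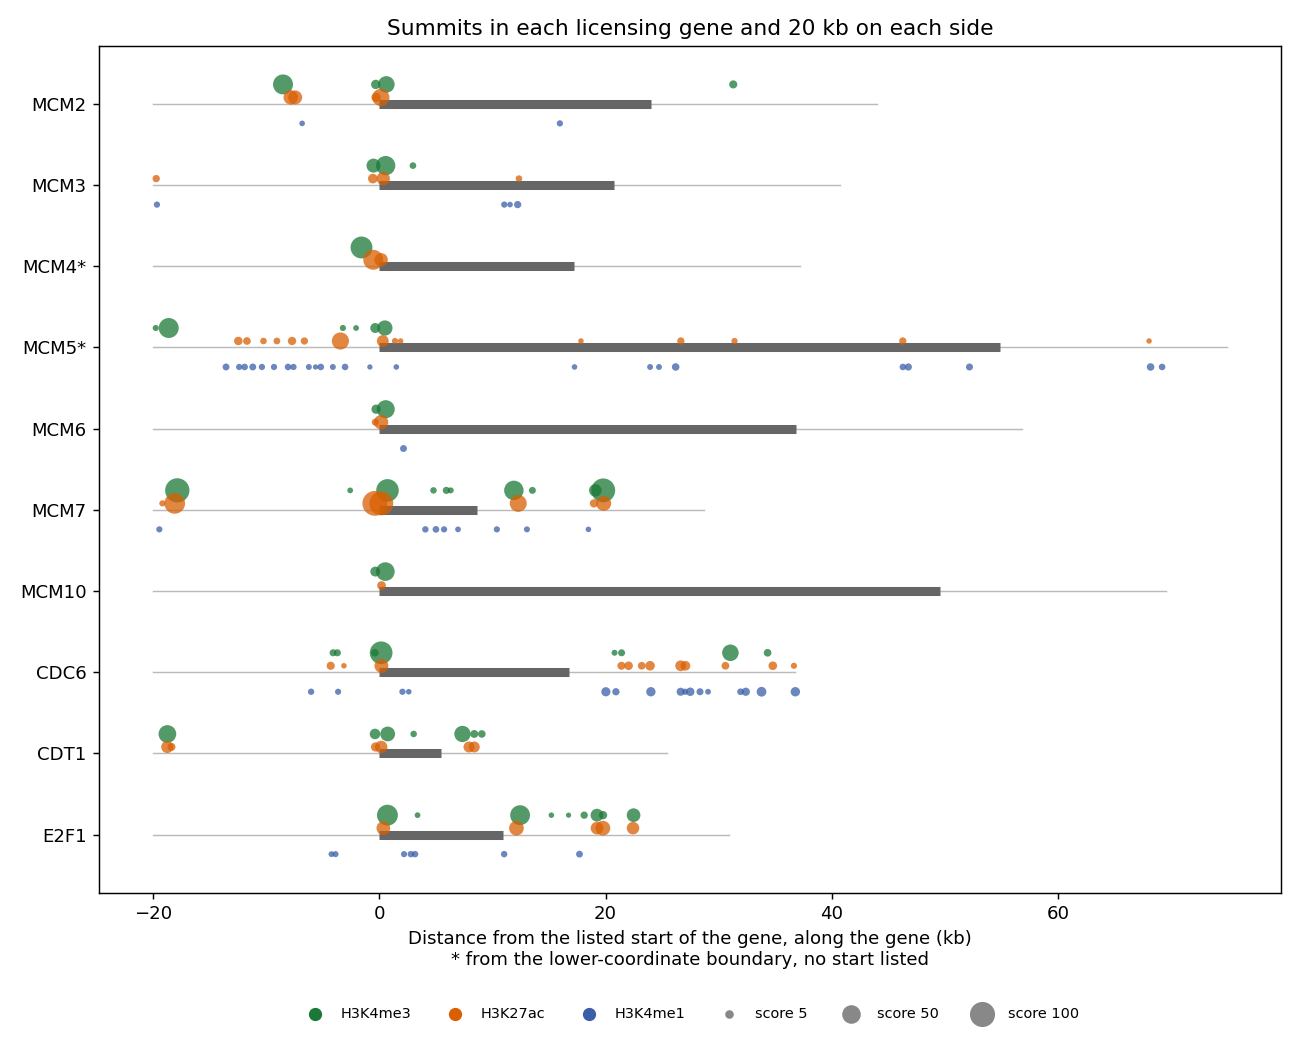
Summits of H3K4me3, H3K27ac and H3K4me1 in each licensing gene (thick bar) and 20000 bp on each side (thin line), by distance along the gene in kb from its listed start, or from the lower-coordinate boundary for MCM4 and MCM5; point area grows with the score. Green H3K4me3 and orange H3K27ac points cluster at distance 0 in each gene but MCM4, whose green point lies 1615 bp outside; MCM4, MCM10 and CDT1 have no blue H3K4me1 point and MCM5 has the most, 24.

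The sequence at these starts was set beside the marks because E2F factors are known to act on this gene class. RefSeq promoter sequences on GRCh38.p14, from 250 bases before to 50 bases after the listed start, were matched for 8 of the 10 genes (MCM2, MCM3, MCM6, MCM7, MCM10, CDC6, CDT1 and E2F1). The E2F words searched, on both strands, were TTTCCCGC, TTTGGCGC, TTTCGCGC and TTTGCCGC. Of the 8 genes, 7 held at least 1 of them, against 5.41% of the 15812 protein-coding genes with a promoter sequence. There were 14 matches in all, 11 beginning upstream of the start and 3 downstream, and 6 of the 14 were TTTCGCGC; matches to different words may overlap. The stretches that hold the matches are shown 5′ to 3′ along the gene, with the E2F words in capitals.

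MCM2, chr3:127598398-127598430, plus strand: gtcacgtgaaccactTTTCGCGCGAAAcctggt
MCM3, chr6:52284729-52284931, minus strand: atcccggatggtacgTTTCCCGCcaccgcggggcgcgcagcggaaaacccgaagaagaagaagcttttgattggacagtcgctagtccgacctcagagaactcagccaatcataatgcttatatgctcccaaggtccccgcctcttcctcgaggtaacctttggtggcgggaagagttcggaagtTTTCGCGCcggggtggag
MCM6, chr2:135876512-135876610, minus strand: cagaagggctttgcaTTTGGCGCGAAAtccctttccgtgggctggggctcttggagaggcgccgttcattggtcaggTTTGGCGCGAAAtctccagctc
MCM7, chr7:100101389-100101599, minus strand: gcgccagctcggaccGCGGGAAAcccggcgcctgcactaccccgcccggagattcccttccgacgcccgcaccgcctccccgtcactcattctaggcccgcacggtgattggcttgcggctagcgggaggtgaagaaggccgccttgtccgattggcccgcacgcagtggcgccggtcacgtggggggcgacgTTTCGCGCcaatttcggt
CDC6, chr17:40287871-40287898, plus strand: ctgtggccattcggaTTTGGCGCgagcg
CDT1, chr16:88803739-88803771, plus strand: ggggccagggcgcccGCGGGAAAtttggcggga
E2F1, chr20:33686388-33686433, minus strand: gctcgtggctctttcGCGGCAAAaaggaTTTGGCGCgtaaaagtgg

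In MCM6 the run TTTGGCGCGAAA occurs at 152 and again at 90 bases before the start, each time as 1 word on the forward strand overlapping 1 on the reverse strand, which makes 4 matches. In MCM2 a similar overlapping pair begins 2 bases after the start. CDC6 has its single word 7 bases after the start and CDT1 its single word 35 bases before it. MCM3 has words at 174 and 4 bases before the start, and MCM7 at 187 and 9. E2F1, which encodes an E2F factor itself, has words at 33 and 20 bases before its own start. A match of letters describes the sequence and is not a measured binding site.

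MCM10 held none of the 4 words, which says only that these letters are not in this window. It is shown for its CCAAT boxes, the sequence known to be bound by NF-Y, in capitals, at 118 and 105 bases before the start.

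MCM10, chr10:13161425-13161467, plus strand: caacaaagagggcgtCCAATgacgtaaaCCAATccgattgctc

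CCAAT on either strand was found in 6 of the 8 promoters, all but MCM2 and CDT1, against 42.1% of protein-coding genes. MCM3, CDC6 and E2F1 had 3 each, and so did the outermost MCM7 promoter. The word GGGCGG, the GC box known to be bound by SP1, was in 6 of 8, against 64.2% of genes, with 6 copies in E2F1 and none in MCM3 or CDC6. The cell cycle word TTTGAA was in none of the 8, against 15.8% of genes. The median GC content of the 8 promoters was 65.0%, against 62.7% over all, and the median number of CG dinucleotides was 32.5, against 22.

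The positions of the marks around the starts were set beside those of all protein-coding genes. In all 8 genes with a listed start the highest H3K4me3 summit within 1000 bp lay downstream of the start, inside the gene; this held for 78.2% of the 9261 protein-coding genes with H3K4me3 there. Its median signed position was 609 bp downstream, against 215 bp downstream over all such genes, which include those with the summit upstream. Regardless of side, the median distance over all such genes was 373 bp. A weaker H3K4me3 summit lay upstream as well in 6 of the 8 genes, against 25.5%. In MCM2 that upstream summit was 121 bp from the start of TPRA1, nearer than to its own. With a start window of 500 bp the count was 1. The highest H3K27ac summit was nearer to the start than the highest H3K4me3 summit in 7 of the 8, against 67.3% of the 7878 genes with both marks there. No H3K4me1 summit lay within 1000 bp of any of the 8 starts. Few genes had one there, 868 of the 15812 protein-coding genes with a listed start.

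**Figure D2:**
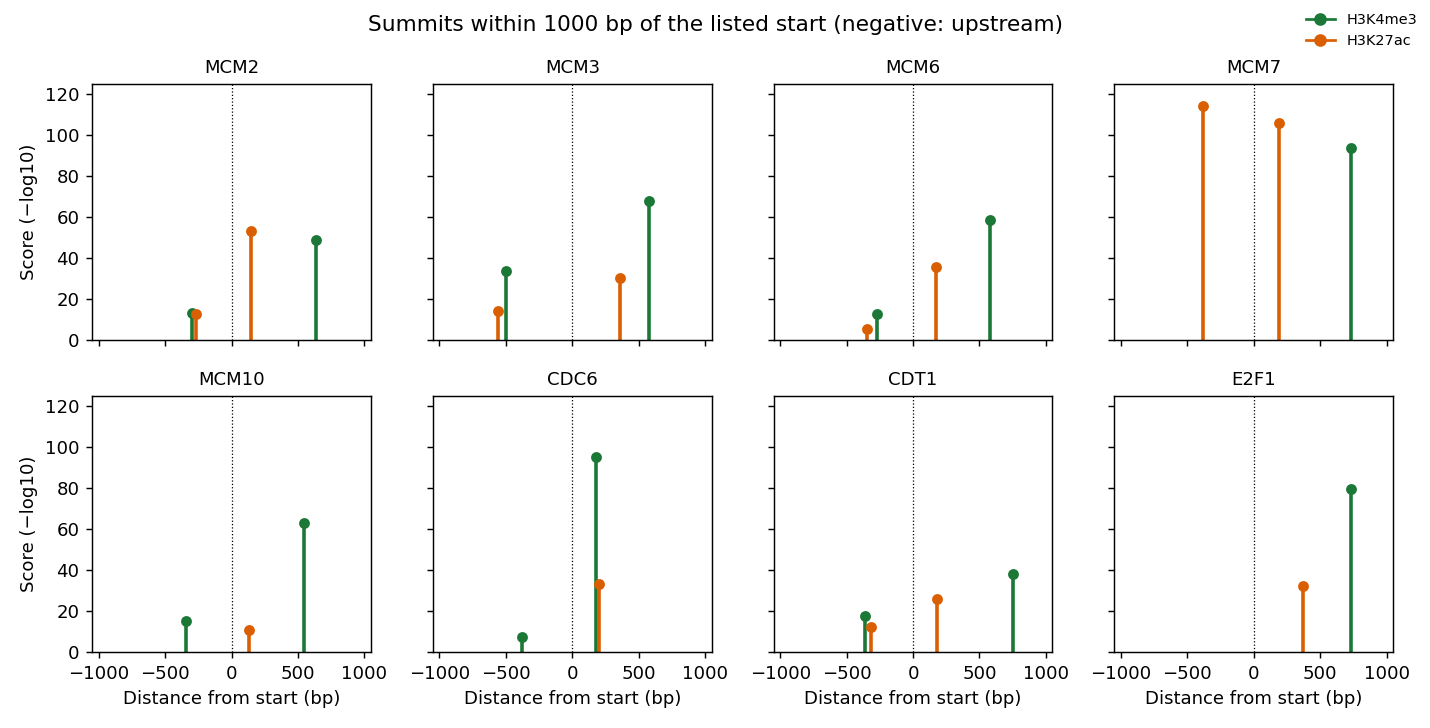
Score (−log10) of each H3K4me3 and H3K27ac summit against its distance in bp from the listed start (dotted line, upstream negative) in the 8 licensing genes with a start in the RefSeq table. The tallest H3K4me3 bar stands to the right of the start in each gene, between 175 bp in CDC6 and 754 bp in CDT1.

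On GRCh38.p14 coordinates, among the helicase subunits, MCM2 (chr3:127598411-127622436) had H3K4me3 scores of 13.0 at 301 bp upstream and 48.8 at 636 bp downstream, with H3K27ac of 12.9 at 272 bp upstream and 53.2 at 147 bp downstream. MCM3 (chr6:52264015-52284742) had the most even H3K4me3 pair by position, 33.9 at 500 bp upstream and 67.7 at 577 bp downstream. Its H3K27ac scores were 14.3 at 557 bp upstream and 30.1 at 362 bp downstream. In both genes the downstream summit of each mark was the higher one.

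MCM6 had H3K4me3 of 12.8 at 272 bp upstream and 58.6 at 582 bp downstream, and H3K27ac of 5.52 at 347 bp upstream and 35.8 at 171 bp downstream. These 4 summits were the only ones of their marks in its window of 76818 bp, although the gene itself is 36818 bp long (chr2:135839626-135876443). Its single H3K4me1 summit, at 5.42, lay 2074 bp from a boundary. The neighbouring lactase gene LCT, whose boundary is 2442 bp away, had no mark at a boundary.

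MCM7 (chr7:100092728-100101397) had the highest boundary H3K27ac scores of the 10 genes, 114 at 383 bp upstream and 106 at 191 bp downstream of its outermost start, and an H3K4me3 score of 93.8 at 736 bp downstream. The lower of these H3K27ac scores still exceeded the best boundary score of every other member, the next being 72.6 in MCM4. This promoter is shared: AP4M1, an adaptor complex subunit gene on the opposite strand, starts 603 bp inside MCM7, and every one of these summits lay within 1000 bp of it. The table lists 3 starts for MCM7, and its highest H3K4me3 summit lay 93 bp from the nearest of them. The H3K27ac summit at 114 lay 137 bp from a listed start of AP4M1, nearer than to any of MCM7. The summits cannot be given to one gene or the other.

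MCM5 and MCM4 have no start in the promoter table, so positions are given from the lower-coordinate boundary. MCM5 (chr22:35400140-35455031) had H3K4me3 of 15.2 at 348 bp outside that boundary and 40.7 at 508 bp inside, with H3K27ac of 23.2 at 321 bp inside. MCM4 (chr8:47960941-47978160) had H3K27ac of 72.6 at 522 bp outside and 31.0 at 174 bp inside. Its only H3K4me3 summit, at 88.1, lay 1615 bp outside its boundary and 810 bp from the boundary of PRKDC, a DNA repair kinase gene, inside that gene. The gap between the 2 genes is 805 bp, so the H3K27ac summits lay within reach of both and the H3K4me3 summit was counted for PRKDC. With a window of 2500 bp MCM4 carried the pair as well, 10 of 10, against 56.1% of protein-coding genes.

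MCM10 (chr10:13161558-13211110), the helicase activation factor, had H3K4me3 of 15.2 at 342 bp upstream and 62.9 at 548 bp downstream but an H3K27ac score of only 10.8, at 128 bp downstream. Among the best boundary H3K27ac scores of the 10 genes, that score was the lowest. Of all protein-coding genes with H3K27ac at a boundary 15.02% scored lower, while 65.5% scored lower for H3K4me3. These 3 summits were the only ones of any mark in a window of 89553 bp.

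The loading factors differed in height. CDC6 (chr17:40287879-40304657) had the highest boundary H3K4me3 score of the 10, 95.1 at 175 bp downstream, above 95.8% of marked genes, with 7.29 at 378 bp upstream and H3K27ac of 33.5 at 199 bp downstream. It was the one gene in which the main H3K4me3 and H3K27ac summits nearly coincided, with H3K4me3 the nearer to the start. CDT1 (chr16:88803789-88809258) had the lowest best boundary H3K4me3 score of the 9 genes with that mark, 38.2 at 754 bp downstream. This was above 31.8% of marked genes, and a second summit scored 17.7 at 365 bp upstream. Its H3K27ac scores were 12.5 at 320 bp upstream and 25.9 at 182 bp downstream.

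E2F1 (chr20:33675477-33686385) had a single H3K4me3 summit at its start, 79.8 at 731 bp downstream, and a single H3K27ac summit, 32.5 at 370 bp downstream. For H3K4me3 86.3% of marked genes scored lower, for H3K27ac 53.8%. Its H3K4me1 boundary summit, at 4.23, lay 137 bp from the other end of the gene, beside a boundary of NECAB3, and not at its start.

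**Figure D3:**
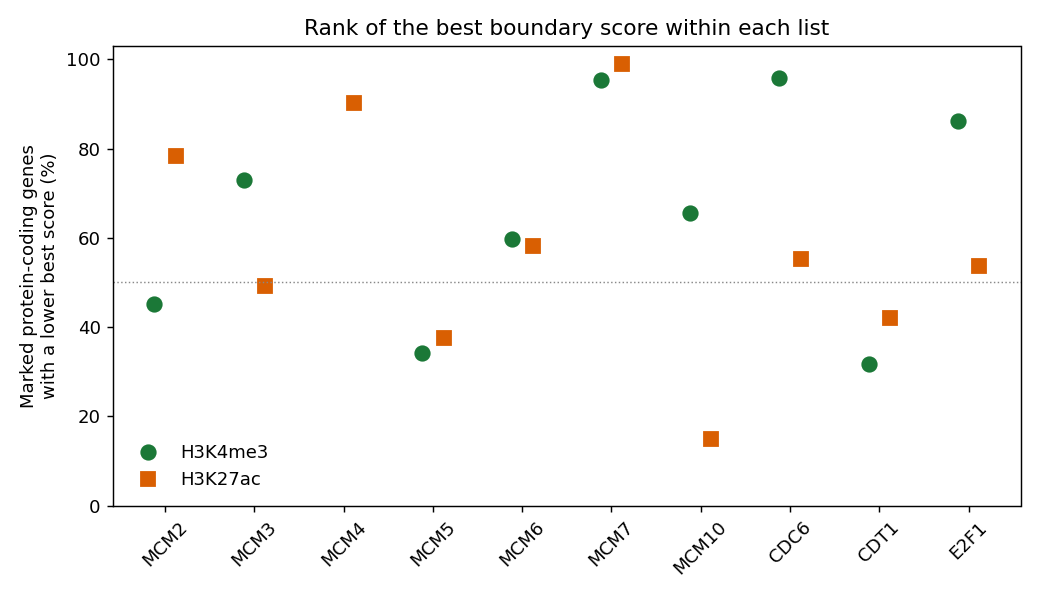
For each licensing gene, the percentage of protein-coding genes with the mark at a boundary whose best score was lower, for H3K4me3 (circles) and H3K27ac (squares); the dotted line marks 50%. MCM7 is high for both marks at 95.3% and 98.9%, MCM10 is split at 65.5% and 15.02%, and MCM4 has no H3K4me3 point.

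The ranks of the 2 marks were close in MCM5, MCM6 and MCM7 and far apart in MCM2, MCM10, CDC6 and E2F1. MCM5 and CDT1 were below the middle of both lists, at 34.2% and 31.8% for H3K4me3 and 37.5% and 42.0% for H3K27ac. MCM2 was below the middle for H3K4me3 (45.1%) and high for H3K27ac (78.2%), and MCM3 was high for H3K4me3 (73.0%) and at the middle for H3K27ac (49.3%).

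Marked boundaries of 4 of the 10 genes lay within 1000 bp of a boundary of another protein-coding gene, against 29.4% of protein-coding genes with any mark at a boundary. These were MCM2 with TPRA1, whose start lies 180 bp away on the opposite strand, MCM4 with PRKDC, MCM7 with AP4M1, and E2F1 with NECAB3 at the end that carries only H3K4me1. The other end of MCM7, 541 bp from COPS6, had no summit within 1000 bp. For MCM2 the upstream H3K4me3 and H3K27ac summits were 121 and 92 bp from the TPRA1 start, nearer than to that of MCM2. CDT1 and APRT, a purine salvage enzyme gene, end 81 bp from each other, but no summit lay there. The start of APRT had H3K4me3 of 47.2 and H3K27ac of 19.7.

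The windows held 52 H3K4me3, 58 H3K27ac and 62 H3K4me1 summits in all, none counted for more than 1 gene. The median per window was 5, 4.5 and 3, against 3, 3 and 1 over all protein-coding genes with the same flanks, while the members' median gene length was 18974 bp against 24482 bp. Of the H3K4me3 summits 16 lay at a boundary of the licensing gene itself and 20 at that of another protein-coding gene. For H3K27ac the numbers were 16 and 16. For H3K4me1 they were 2 and 8, and 30 of the 62 were distal, meaning over 2500 bp from all boundaries in the gene table.

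Many of the strongest summits in these windows belonged to neighbours. In the MCM7 window, the densest for H3K4me3 with 10 summits in 48670 bp, the 2 highest scores were 109 beside CNPY4 and TAF6 and 106 beside ZNF3, both above the 93.8 of MCM7 itself. In the E2F1 window H3K4me3 reached 71.6 at 495 bp from a listed start of NECAB3, and H3K27ac reached 38.0 near ACTL10, above the 32.5 of E2F1. In the MCM5 window the highest H3K4me3 score, 72.6, lay 453 bp from a boundary of HMOX1, the heme oxygenase gene. The highest H3K4me3 score of the MCM2 window, also 72.6, lay 8494 bp upstream of MCM2 and 816 bp from a listed start inside TPRA1. CDT1 had 56.5 at 141 bp from the start of PIEZO1, a mechanosensitive channel gene, against its own 38.2. In the windows of MCM3, MCM6, MCM10, CDC6 and E2F1 the highest H3K4me3 score was at the licensing gene.

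H3K4me1 was unevenly spread over the windows, from 0 summits to 24. The windows of MCM4, MCM10 and CDT1 held none, 3 of 10, against 40.6% of protein-coding genes, and the nearest summit lay 55454, 52802 and 21851 bp from a boundary. Of the 62 summits 5 scored 10 or more (8.06%), against 7.87% of the whole H3K4me1 list. These 5 were in the CDC6 window, 3252 bp or more from CDC6, toward RARA, the retinoic acid receptor gene. Their scores ran from 10.1 to 14.4. MCM5 held 24 of the 62 and CDC6 16, so these 2 windows carried most of the mark. The 2 boundary scores were 1.67 in MCM5 and 4.23 in E2F1, against a median of 4.75 over all genes with H3K4me1 at a boundary.

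Distal H3K27ac with H3K4me1 within 1000 bp, a pairing typical of active enhancers, was found in 4 of 10 windows, against 33.9% of protein-coding genes. MCM5 had 9 of the 13 such sites, MCM3 had 2, and MCM2 and CDC6 had 1 each. Their H3K27ac scores had a median of 6.51, and the 3 highest were 52.6, 33.8 and 13.8.

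The site at 52.6 (chr22:35396716) lay 3424 bp outside the MCM5 boundary and 2509 bp from the HMOX1 boundary, just past the distance that defines distal, with H3K4me1 of 4.58 at 412 bp and a weak H3K4me3 summit of 3.47 at 222 bp. It was higher than the 23.2 at the MCM5 boundary. Of the other MCM5 sites 4 lay inside HMOX1 with scores from 4.57 to 10.2, 3 inside MCM5 and 1 beyond its far end, these 4 with scores from 2.03 to 6.51. The site at 33.8 in the MCM2 window lay 257 bp from a listed start of TPRA1. It fell out when distance from listed starts was also required, which left 3 genes with such a site, against 33.1% of protein-coding genes. That requirement could not remove the 9 MCM5 sites, because neither MCM5 nor HMOX1 has a listed start. The MCM3 sites were weak, at 4.57 inside the gene and 6.51 at 19699 bp upstream. The CDC6 site, at 13.8 with H3K4me1 of 13.1 at 72 bp, lay inside RARA. MCM4, MCM6, MCM7, MCM10, CDT1 and E2F1 had none.

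MCM7 also contains 3 microRNA genes, MIR25, MIR93 and MIR106B, which are known to be processed from its transcript. They are shown because they lie in this gene, with the seed, bases 2 to 8, in capitals (RefSeq, GRCh38.p14). Whether they are made from the marked promoter in these cells was not tested. miR-93-5p and miR-106b-5p share the seed AAAGUGC, and miR-25-3p has AUUGCAC.

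hsa-miR-106b-5p, chr7:100094043-100094063, minus strand: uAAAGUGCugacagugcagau
hsa-miR-93-5p, chr7:100093815-100093837, minus strand: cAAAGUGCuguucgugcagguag
hsa-miR-25-3p, chr7:100093571-100093592, minus strand: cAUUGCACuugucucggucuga

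From the middle of these 3 sequences the outermost MCM7 start is 7344, 7571 and 7816 bp away. The nearest H3K4me3 summit, with a score of 3.28, lay 1023, 1250 and 1495 bp away, and the nearest H3K4me1 summit, with a score of 2.59, lay 377, 604 and 849 bp away. The nearest H3K27ac summit, 51.5 at COPS6, was at least 4474 bp from each. The 3 H3K4me3 summits inside MCM7 away from its boundaries scored 3.28, 6.03 and 4.25.

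Other genes of the replication pathway, 62 in 7 groups, showed the pair of H3K4me3 and H3K27ac at the same boundary in 52 cases (83.9%), beside the 9 of 10 licensing genes and the 47.7% of all protein-coding genes. Their median best scores were 59.7 for H3K4me3 and 32.9 for H3K27ac. H3K4me1 was at a boundary of 4 of them, and 14 had a distal H3K27ac summit with H3K4me1 in their window. Of 53 with a promoter sequence 23 held an E2F word.

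**Figure D4:**
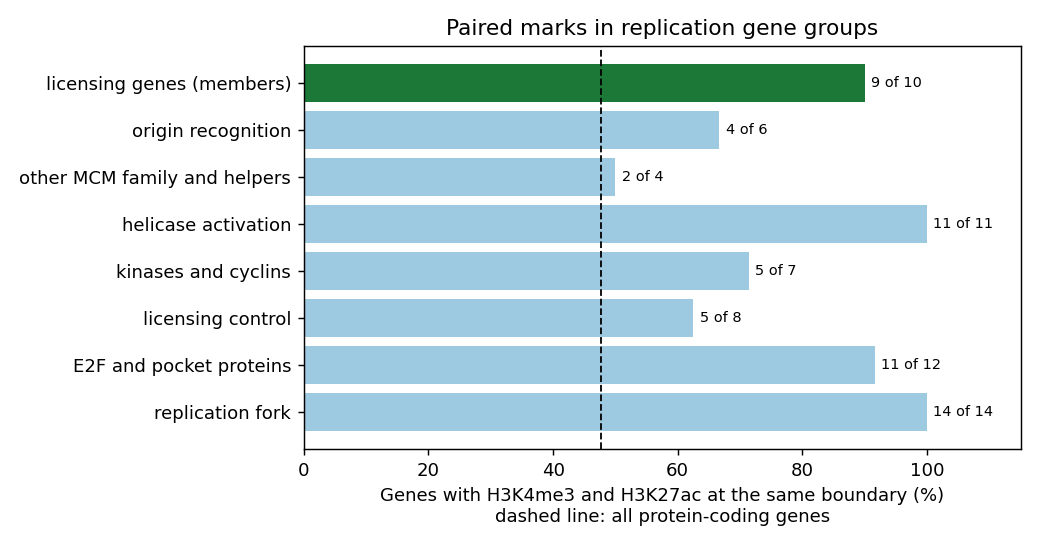
Percentage of genes with H3K4me3 and H3K27ac within 1000 bp of the same boundary in the licensing genes and in 7 groups of other replication genes, with the number of genes beside each bar; the dashed line is the share of all protein-coding genes, 47.7%. Helicase activation genes (11 of 11) and fork genes (14 of 14) are complete, and origin recognition genes (4 of 6) are not.

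The pair was found in all 11 genes of helicase activation, among them CDC45 (H3K4me3 59.7, H3K27ac 72.2), which encodes a subunit of the active helicase, and GINS1 (101 and 56.8). GINS1 and TOPBP1 each had 2 distal sites, the most of that group. All 14 fork genes had it, including the sliding clamp gene PCNA (48.1 and 18.7) and the clamp loader gene RFC1 (59.7 and 19.3), and RFC5 had the most distal sites, 5. Of 12 E2F and pocket protein genes 11 did, with E2F2 at 48.7 and 25.9 and E2F3 at 50.3 and 59.0. E2F8 was the exception, with H3K4me3 of 77.5 inside the gene and the nearest summit 1029 bp from a boundary. TFDP2, a dimer partner of E2F factors, had 4 distal sites.

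In the remaining groups most of the genes that lacked H3K4me3 at a boundary had it a little further in. Of 6 origin recognition genes 4 carried the pair, ORC2 (59.7 and 32.9) and ORC3 (69.3 and 24.5) among them. ORC1 had scores of 70.9 and 35.4 inside the gene, with the nearest H3K4me3 summit 4187 bp from a boundary. ORC6 had H3K27ac of 62.8 at a boundary and no H3K4me3 in the gene, the nearest lying 1224 bp away. ORC2, ORC3 and ORC5 had 1 distal site each.

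Of 7 kinase and cyclin genes 5 carried the pair, with the CDC7 activator genes DBF4 (71.6 and 70.5) and DBF4B (85.6 and 34.3) among them. CDC7 and CCNE2 had H3K4me3 of 38.2 and 66.9 inside the gene, the nearest summit lying 1365 and 1633 bp from a boundary. Of 8 licensing control genes 5 carried it, including GMNN (61.3 and 65.5), which encodes the CDT1 inhibitor geminin, and MCIDAS (17.7 and 7.53). DTL, DDB1 and CUL4B, parts of the ligase that degrades CDT1 in S phase, had H3K4me3 of 56.7, 55.7 and 82.5 inside the gene, the nearest summit lying 1245, 1182 and 9593 bp from a boundary, and CUL4B had 7 distal sites. Of the other MCM family and helper genes MCM8 (81.2 and 45.6) and MCM9 (38.2 and 17.9) carried the pair, MCMDC2 had H3K4me3 alone (7.38), and MCMBP had H3K4me3 of 51.6 inside the gene, the nearest summit lying 1507 bp from a boundary. Counted over the whole gene, H3K4me3 and H3K27ac were both present in 61 of the 62, ORC6 being the exception. That rule is looser than the one for the same boundary. No share over all protein-coding genes is given for it, so the count has no background.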

How the data were processed

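Chromatin immunoprecipitation sequencing was deposited as 1 list of peak summits per mark. The build hg38 and the tools MACS2, Bowtie, deepTools and Picard are named per the submitters' processing notes. No source used here gives tool versions, settings or the control. Each summit's score, as deposited, is on the −log10 scale; whether a p-value or a q-value lies behind it is not stated. Each list comes from 1 library per the labels, and read depth is unknown.

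Summits off chromosomes 1 to 22 and X were left out (185 H3K4me3, 273 H3K27ac, 61 H3K4me1). Gene boundaries came from RefSeq genes on GRCh38.p14, which shares chromosome coordinates with hg38; rows in scaffold coordinates were dropped, leaving 58419 genes, 19821 protein-coding. Exons and introns were not used here. Starts and sequences came from the RefSeq promoter table (15812 protein-coding genes); where several starts are listed the outermost was used. A mark was at a boundary within 1000 bp, in a window within 20000 bp of the gene, and distal over 2500 bp from all gene boundaries. Counting was tested on simulated summits. Python 3.11.15, pandas 2.3.3 and NumPy 2.4.6 were used. All 10 members were named, with protein-coding neighbours that share a boundary; of each related group, the first 2 with both marks, every gene without H3K4me3 at a boundary and the one with most distal sites. Other neighbours were named after their values were seen. The members and lists were chosen with earlier results of these data known. One marker gene is not reported here.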

Additional observations from a re-analysis of the deposited data

How the results depend on the processing

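Each mark had 1 library, and no replicate was left out. No paired analysis was possible because each group has 1 sample and no test was made. Of 60 alternatives run over 14 results, 41 left the count within 1.5 times its value and 19 did not. The alternatives on layout around the start and on listed starts were chosen after seeing the data. The cause of the changes was not tested.

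The counts of members with the pair, with H3K4me3 and with H3K27ac stayed between 7 and 10. At listed starts only, each count was 8, out of the 8 genes with a start. Of the 15812 protein-coding genes with a listed start, 9261 had H3K4me3, 8742 H3K27ac and 7878 both within 1000 bp of the outermost one. The pair was in 7 members at 500 bp, against 31.4% of protein-coding genes. With scores of at least 10 it was in 9 members, against 40.6%. H3K4me1 at a boundary, 2 members, became 1 at 500 bp, against 7.33% of protein-coding genes, 5 at 2500 bp, against 25%, and 0 with scores of at least 10, against 1.13%. It became 7 over the whole gene and 0 at the listed starts of 8 genes only. For counts over the whole gene no share of all protein-coding genes is given, so they have no background. The related genes with the pair, 52, fell to 32 at 500 bp, where the share of all protein-coding genes was 31.4%.

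A score of at least 10 left 28 H3K4me3, 34 H3K27ac and 5 H3K4me1 summits in the windows, and a flank of 50000 bp gave 94 H3K27ac and 145 H3K4me1 summits. Distal sites, 13, became 7 at 5000 bp, 8 and 35 with flanks of 10000 and 50000 bp, and 1 with scores of at least 10; genes with such a site, 4, became 2 at 5000 bp and 1 with scores of at least 10. Shared boundaries fell from 4 genes to 2 at 500 bp. H3K4me3 on both sides of the start fell from 6 genes to 1 with a start window of 500 bp. For distal sites, shared boundaries and both-sided H3K4me3, no share over all protein-coding genes is given at these settings. These changed counts therefore cannot be set against a background. The shorter 7-base E2F words were in 8 of 8 promoters, against 13.4% of genes.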

Other observations

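The scores of the 3 lists took few distinct values, which bears on how finely genes can be ranked. The 46078 H3K4me3 summits had 4044 distinct scores, and 95.9% of them shared their score with another summit. For H3K27ac 96.9% did and for H3K4me1 99.0%. CDT1 and MCM9 had the same best H3K4me3 score, 38.2, held by 134 summits of the list, and MCM10 and WDHD1 shared 62.9, held by 130. The H3K27ac score of MCM10, 10.8, was held by 962 summits, while the scores of MCM7, 93.8 for H3K4me3 and 114 for H3K27ac, were each held by 1.

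The E-box word CACGTG occurred in 2 of the 8 member promoters, MCM2 at 11 and MCM7 at 25 bases before the start, against 10.9% of protein-coding genes.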
